A study of Mus musculus with 6 samples.

Results

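The heat shock proteins of the cytosol and mitochondria were examined in Hepa1-6 tumors with and without Sora treatment. The group holds 10 genes, matched by their symbols: Hspa8, Hspa1a, Hspa1b, Hsph1, Dnajb1, Hsp90aa1, Hsp90ab1, Hspb1, Hspd1, and Hspe1. All 10 are among the 26167 genes of the deposited tables, all 10 had reads in every tumor, and all 10 passed the filter on low counts. The tumors grew subcutaneously from Hepa1-6, a hepatoma line of mouse origin, in female C57BL/6J mice aged 6 to 8 weeks. The 3 control tumors are numbered 1, 3, and 4 in the labels, and the 3 Sora-treated tumors are numbered 2, 3, and 4. Sora (sorafenib) blocks RAF, VEGF receptor, and other kinases, and it was given ip at 10 mg/kg on days 9, 11, 13, and 15. Whether the control mice received a vehicle, and on which day the tumors for RNA-seq were taken, is not given in the sources used here. Each library is bulk RNA of a whole tumor, so host cells are mixed with the hepatoma cells, and fewer cells of a type cannot be told apart from less RNA per cell.

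Heat shock proteins are chaperones, which bind unfolded or unfinished proteins and help them to fold. In unstressed cells the transcription factor HSF1 is held inactive by chaperones. When damaged proteins draw the chaperones away, HSF1 forms trimers, binds heat shock elements in the DNA, and drives the inducible chaperone genes. Many tumor cells keep this program on, and transcript levels of its most inducible genes are a common readout of protein stress.

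Heat shock elements are runs of the 5-base unit nGAAn in alternating orientation, and HSF1 trimers bind at least 3 units. RefSeq promoter windows of GRCm38.p6, from 250 bases before to 50 bases after the annotated start, were held for 7 of the 10 genes. Hspa8, Hsp90aa1, and Hsp90ab1 were without a window. The stretches shown here are the bases just before the start, given to show where adjacent units lie, and only that of Hspe1 holds 3 or more exact units in a row. They are in lower case with matches to 2 or more adjacent units (GAANNTTC or TTCNNGAA) in capitals. Units that depart from GAA or TTC were not searched, so a lack of matches does not show that an element is absent. Hspa1a lies at chr17:34972157-34972306 and Hspa1b at chr17:34959239-34959388, each on the minus strand, and over 150 bases they differ at 1 position. Hspb1 lies at chr5:135887769-135887918 on the plus strand, and Hspe1 at chr1:55087998-55088147 on the plus strand.
Hspa1a: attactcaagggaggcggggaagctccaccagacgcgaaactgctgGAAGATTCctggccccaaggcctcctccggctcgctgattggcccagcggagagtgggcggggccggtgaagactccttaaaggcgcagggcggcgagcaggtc
Hspa1b: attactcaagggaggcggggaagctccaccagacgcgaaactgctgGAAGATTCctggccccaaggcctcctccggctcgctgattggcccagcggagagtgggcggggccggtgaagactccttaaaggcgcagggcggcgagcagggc
Hspb1: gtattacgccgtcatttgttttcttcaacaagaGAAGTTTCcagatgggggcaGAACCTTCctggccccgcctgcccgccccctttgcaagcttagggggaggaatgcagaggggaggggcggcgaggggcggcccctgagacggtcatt
Hspe1: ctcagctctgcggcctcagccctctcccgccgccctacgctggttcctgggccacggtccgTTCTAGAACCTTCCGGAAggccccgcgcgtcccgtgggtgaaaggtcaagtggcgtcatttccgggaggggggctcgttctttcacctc

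Hspe1 and Hspd1, the cochaperonin and the chaperonin of the mitochondrial matrix, share a 4-unit match. Hspd1 has windows for 2 starts on the minus strand, and 215 bases lie between its second start and the start of Hspe1 on the plus strand. The site between them holds 4 alternating units in 18 bases, at chr1:55088059-55088076. It begins 89 bases before the start of Hspe1 and 144 bases before the second start of Hspd1, and it lies inside the span of Hspd1 that opens at its first start.
Hspe1, plus strand: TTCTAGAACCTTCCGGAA
Hspd1, minus strand: TTCCGGAAGGTTCTAGAA

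Hsph1, an HSP110 chaperone that exchanges the nucleotide of HSP70, held a 3-unit match (TTCTGGAAAGTTC, chr5:149636288-149636300, minus strand) that begins 15 or 36 bases after the 2 starts with a window. The annotated span of Hsph1 opens upstream of both. In all, 3 of the 7 genes held the 3-unit element (GAANNTTCNNGAA or its complement, searched on both strands), against 0.662% of the 27025 genes with a window. A 2-unit match was found in 6 of the 7 genes, against 17.0% of genes with a window. Each 3-unit match also holds 2-unit matches, while those of Hspa1a, Hspa1b, and Hspb1 lie outside any 3-unit match. The windows of Dnajb1 held neither. The group was chosen as HSF1-driven chaperones, so its shares of matches are not an independent finding. A match is a description of letters and was not measured as a binding site.

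**Figure D1:**
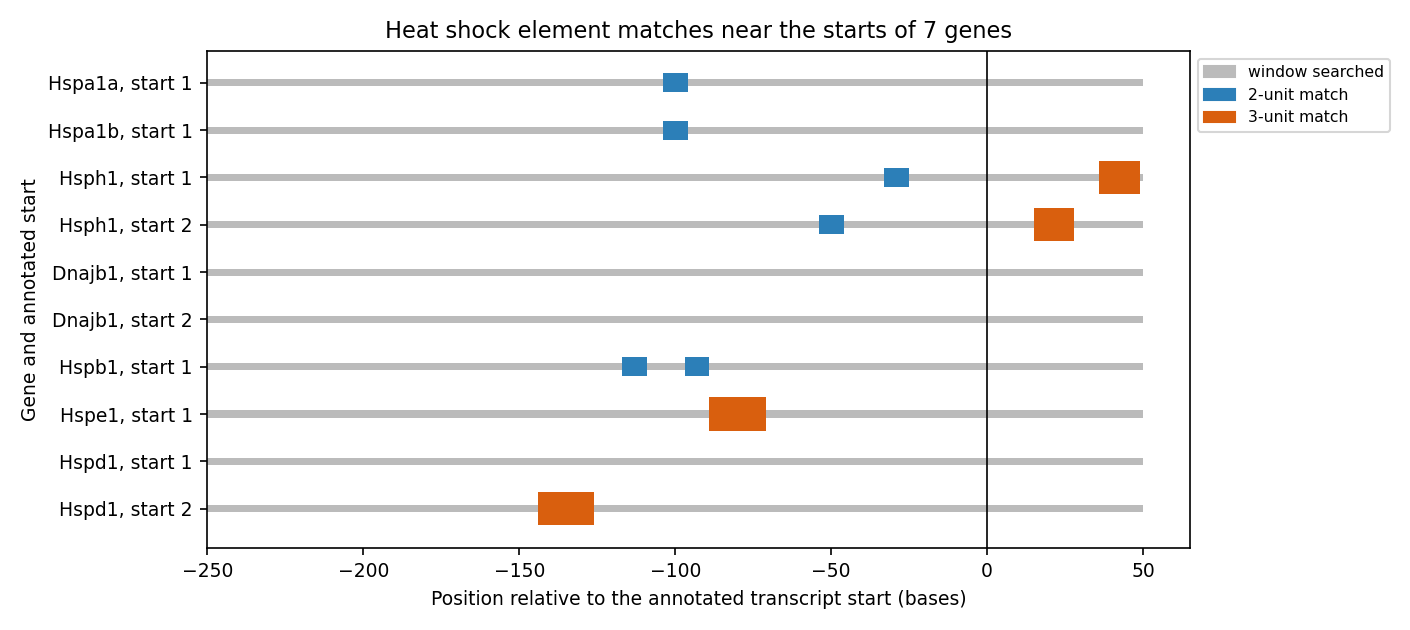
Matches to 2 or 3 alternating units of the heat shock element in the windows around annotated starts of 7 genes, by position in bases relative to the start (black line). Hspe1, the second start of Hspd1, and both starts of Hsph1 hold a 3-unit match, while Dnajb1 and the first start of Hspd1 hold none.

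The libraries held between 31073830 and 36205814 counted reads. The count table used here holds 5 tumors and the FPKM table holds 6, so the counts of Sora-treated tumor 4 were recovered from its FPKM, and results without it rest on deposited counts alone. Alb and Afp, among the markers of hepatoma cells, had reads in every tumor, as did all 18 leukocyte markers. The labels do not say whether the tumors of a group grew in separate mice, so p values measure the spread between these tumors.

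No gene of the group passed the test between Sora-treated and control tumors. Of the 10 genes, 0 had an adjusted p under 0.05 in edgeR's quasi-likelihood test with Benjamini-Hochberg adjustment, against 3.29% of the 16513 genes tested. At an unadjusted p under 0.05 there was 1 gene, Dnajb1, against 17.2% of all genes, and there were 3 without control tumor 1 (14.4% of all genes in that fit) and 0 without Sora-treated tumor 4 (11.9%). DESeq2 and limma voom also called 0 of the 10, and each had 1 at an unadjusted p under 0.05. The log2 fold change was above 0 in 7 genes and below 0 in 3, with a median of 0.025, beside a median of -0.00037 over all genes tested. Leaving out Sora-treated tumor 3 gave the group a median of 0.12, and leaving out tumor 4 of the same arm gave -0.038. The median size of the log2 fold change, without its sign, was 0.058 in the group and 0.15 over all genes, with median standard errors of 0.11 and 0.12.

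The 95% intervals of the log2 fold changes lay between -0.37 and 0.72, so for all 10 genes the interval excluded a 2-fold change in either direction. Together the 10 genes held 0.542% to 0.566% of the counts in control tumors and 0.505% to 0.593% in Sora-treated tumors. The Sora-treated tumors thus held both the lowest and the highest share.

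**Figure D2:**
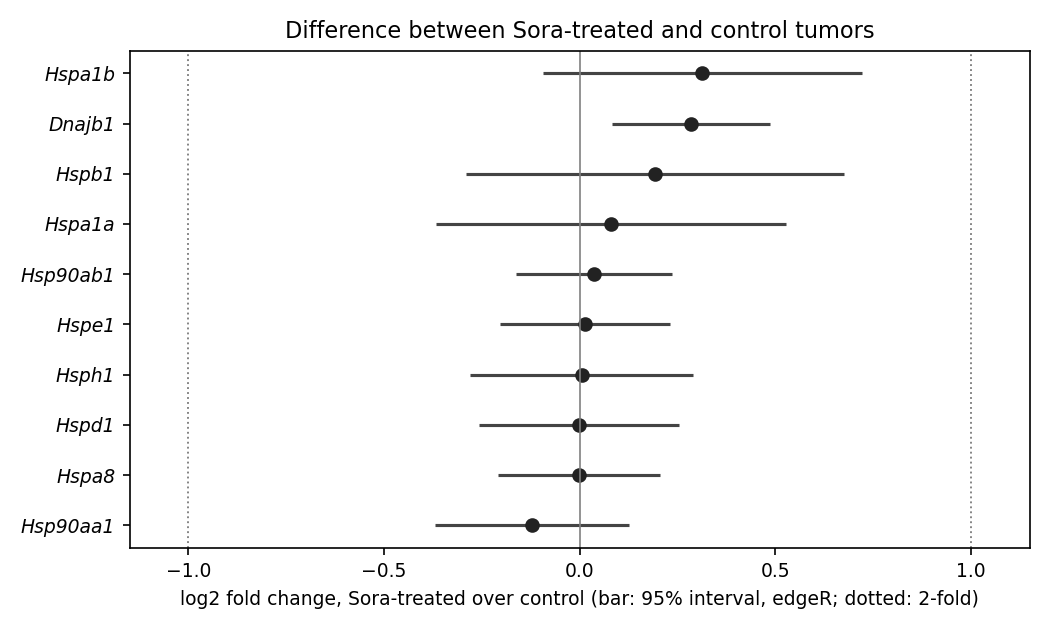
Log2 fold change of each gene, Sora-treated over control (3 tumors against 3), with the 95% interval from edgeR's test. All intervals lie inside the dotted lines at a 2-fold change, and that of Dnajb1 alone excludes 0 before adjustment over all genes.

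Levels between genes were compared as FPKM, a unit that corrects the count for gene length and library depth. Hsp90ab1 and Hspa8, the constitutive HSP90 and HSP70 of the cytosol, were the highest, with means over the 6 tumors of 901 and 791 FPKM. Hspe1 (248 FPKM), Hspd1 (247 FPKM), and Hsp90aa1 (185 FPKM) followed. These 5 genes lay above the 98th percentile of the genes tested. Dnajb1 (28.04 FPKM), Hsph1 (26.2 FPKM), and Hspb1 (12.1 FPKM) came next. Hspa1b (4.30 FPKM) and Hspa1a (2.69 FPKM), the inducible HSP70 genes, were the lowest and lay below the median gene tested. Their coding sequences are nearly alike, and reads that fit both genes may not have been counted, so these levels are uncertain. Hspe1 and Hspd1 did not differ beyond their spread (Hspe1 was higher in 3 of 6 tumors), and neither did Dnajb1 and Hsph1 (4 of 6). All other neighbors kept their order in 6 of 6 tumors, although the ranges over tumors overlapped for Hspd1 and Hsp90aa1 and for Hspa1b and Hspa1a.

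**Figure D3:**
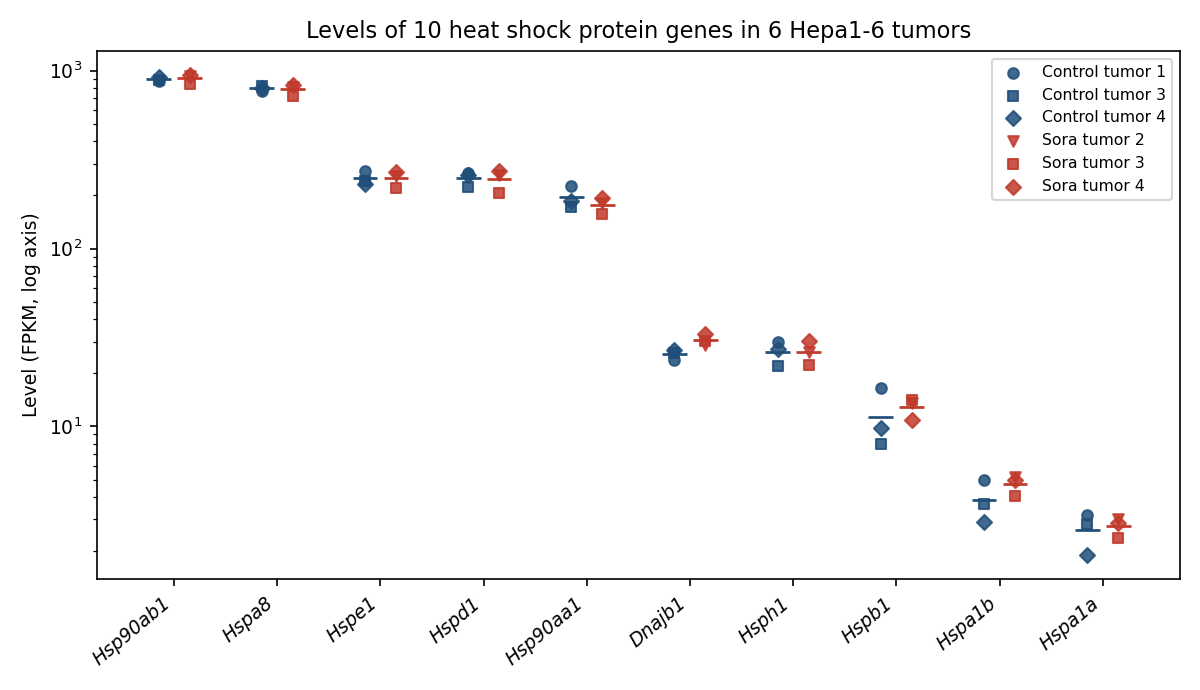
FPKM of the 10 genes on a log axis, with 1 point per tumor and a short line at the mean of each group of 3 tumors. The genes span from 2.69 FPKM (Hspa1a) to 901 FPKM (Hsp90ab1) on average, whereas the groups overlap within every gene but Dnajb1.

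Hspa8, or HSC70, is the constitutive HSP70 of the cytosol (chromosome 9, 40801276 to 40805202, GRCm38.p6). It stood at 767, 815, and 803 FPKM in control tumors 1, 3, and 4 and at 808, 723, and 831 FPKM in Sora-treated tumors 2, 3, and 4. The groups overlapped, and Sora-treated tumors 3 and 4 were the lowest and the highest of all 6. Its log2 fold change was -0.0029 (95% interval -0.21 to 0.20, adjusted p = 0.99, edgeR), which spans folds of 0.865 to 1.152.

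Hspa1a and Hspa1b encode the stress-inducible HSP70 and stand side by side on chromosome 17 (34969359 to 34972156 and 34956429 to 34959238). Hspa1b stood at 5.01, 3.67, and 2.89 FPKM in control and 5.17, 4.05, and 4.996 FPKM in Sora-treated tumors. Its log2 fold change of 0.31 was the highest of the group (standard error 0.18, adjusted p = 0.43, edgeR), and the groups overlapped, with control tumor 4 the lowest. Hspa1a stood at 3.18, 2.82, and 1.89 FPKM in control and 3.01, 2.37, and 2.87 FPKM in Sora-treated tumors. The log2 fold change of Hspa1a was 0.080, with a standard error of 0.20 and an adjusted p of 0.88 in edgeR, and control tumor 4 was again the lowest. Without control tumor 4 the log2 fold changes were 0.14 for Hspa1b and -0.11 for Hspa1a, and without control tumor 1 they were 0.52 and 0.22, none of which passed.

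The coding sequences of these genes differ at 8 aligned bases and 3 gap bases (99.6% identity), and 68.1% of the 100-base windows of Hspa1a occur unchanged in Hspa1b, so the split of reads between them is uncertain. How reads that fit both genes were counted is not given in the sources used here. Both levels, and their sum, may therefore be too low. Summed and tested as 1 gene, the pair stood at 18.1 ± 4.56 CPM in control and 21.1 ± 2.86 CPM in Sora-treated tumors (SD, n = 3), and edgeR gave a log2 fold change of 0.22 with an adjusted p of 0.56. CPM are counts scaled to the library size after TMM normalization. The FPKM ratio of Hspa1b to Hspa1a, chosen after its values were seen, was 1.58, 1.302, and 1.53 in control and 1.71, 1.71, and 1.74 in Sora-treated tumors. The ratios did not overlap (two-sided exact permutation p = 0.1, below which 3 tumors against 3 cannot go).

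Dnajb1, or HSP40, is the J-domain protein that delivers substrates to HSP70 and starts its ATPase (chromosome 8, 83608175 to 83612653). It stood at 23.5, 25.7, and 26.9 FPKM in control and 28.6, 30.2, and 33.2 FPKM in Sora-treated tumors. It was the only gene of the group whose groups did not overlap, with every Sora-treated tumor above every control tumor, as were 10.6% of all genes tested. The fold was 1.22 (95% interval 1.06 to 1.40), or 0.28 on the log2 scale (standard error 0.092, and in edgeR an unadjusted p of 0.010 and an adjusted p of 0.13). The adjusted p was 0.059 in DESeq2, and 0.44 in edgeR without Sora-treated tumor 4, where the log2 fold change was 0.20. The FPKM ratio of Hspa8 to Dnajb1, also chosen after its values were seen, was 32.6, 31.7, and 29.8 in control and 28.2, 23.9, and 25.0 in Sora-treated tumors (two-sided exact permutation p = 0.1, again the lower limit).

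Hsph1 lies on chromosome 5 (149616843 to 149636498). It stood at 29.8, 21.9, and 27.3 FPKM in control and 26.03, 22.02, and 30.19 FPKM in Sora-treated tumors. In each group tumor 3 was the lowest, and the groups overlapped over nearly their whole range. The log2 fold change was 0.0048 (95% interval -0.28 to 0.29, adjusted p = 0.99, edgeR).

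HSP90 finishes the folding of kinases, steroid receptors, and other signaling proteins, RAF kinases among them, with Hsp90aa1 as the inducible form and Hsp90ab1 as the constitutive form. Hsp90ab1 (chromosome 17, 45567778 to 45573261) stood at 877, 882, and 920 FPKM in control and 931, 845, and 948 FPKM in Sora-treated tumors. Its log2 fold change was 0.036 (95% interval -0.16 to 0.24, adjusted p = 0.88, edgeR), and its highest CPM was 1.17 times its lowest, the narrowest range of the group. Hsp90aa1 (chromosome 12, 110691036 to 110696395) stood at 226, 171, and 185 FPKM in control and 179, 156, and 193 FPKM in Sora-treated tumors. Its log2 fold change of -0.12 was the lowest of the group (95% interval -0.37 to 0.13, adjusted p = 0.65, edgeR), and control tumor 1 lay above all other tumors. With each tumor left out it ranged from -0.21 (without Sora-treated tumor 4) to -0.017 (without control tumor 1).

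The constitutive form thus exceeded the inducible one in every tumor. The FPKM ratio of Hsp90ab1 to Hsp90aa1 was 3.88, 5.15, and 4.98 in control and 5.19, 5.42, and 4.90 in Sora-treated tumors (exact permutation test, two-sided p = 0.4), and this ratio too was chosen after its values were seen. Their coding sequences were 76.3% identical, and no 100-base window was shared.

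Hspb1, or HSP25, is a small heat shock protein that holds unfolded proteins without ATP (chromosome 5, 135887919 to 135889563). It stood at 16.3, 7.94, and 9.73 FPKM in control and 13.5, 14.1, and 10.8 FPKM in Sora-treated tumors. Its highest CPM was 1.96 times its lowest, the widest range of the group, and control tumors 1 and 3 lay at its ends. The log2 fold change was 0.19 (95% interval -0.29 to 0.68, adjusted p = 0.72, edgeR), and the groups overlapped. It was 0.53 without control tumor 1 and 0.0079 without control tumor 3.

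Hspb1 had the largest SD of log2(CPM + 1) over the 6 tumors, and the genes with the most similar profile were sought for it. Likeness was the root mean square distance between profiles of log2(CPM + 1) over the 6 tumors, each centered on its mean, among 10074 other genes with at least 10 CPM. The nearest 5 were Acpp (0.086), Krt80 (0.099), Tiam1 (0.10), Tmem45a (0.14), and Sbsn (0.14), against a median distance of 0.33. Sbsn, which encodes suprabasin of the epidermis, stood at 97.8, 49.4, and 46.8 CPM in control and 86.5, 78.4, and 64.4 CPM in Sora-treated tumors. Krt80 is an epithelial keratin. The summed level of 10 keratinocyte and skin markers, all detected, was 1326, 528, and 630 CPM in control and 1272, 934, and 1033 CPM in Sora-treated tumors. The tumor with most Hspb1 and the tumor with least were thus also those with most and least of these markers, and the part of skin in the Hspb1 level was not tested.

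Hspd1, or HSP60, folds imported proteins in a chamber that Hspe1, or HSP10, closes. Hspd1 (chromosome 1, 55077833 to 55088243) stood at 265, 221, and 260 FPKM in control and 257, 206, and 274 FPKM in Sora-treated tumors. Hspe1 (chromosome 1, 55088148 to 55091317) stood at 274, 241, and 229 FPKM in control and 254, 220, and 270 FPKM in Sora-treated tumors. In the Sora-treated group tumor 3 was the lowest and tumor 4 the highest for each gene, and the groups overlapped. The log2 fold changes were -0.0018 (95% interval -0.26 to 0.25) for Hspd1 and 0.014 (95% interval -0.20 to 0.23) for Hspe1, with adjusted p of 0.996 and 0.97 in edgeR's test.

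The FPKM ratio of Hspe1 to Hspd1 stayed close to 1, at 1.03, 1.09, and 0.883 in control and 0.988, 1.07, and 0.984 in Sora-treated tumors (exact permutation test, two-sided p = 0.9, ratio chosen after its values were seen). By RefSeq the genes overlap by 96 bases at their starts, and 5 pseudogenes of Hspd1 and 7 related to Hspe1 are annotated, so the assignment of reads from these stretches is uncertain. Only pseudogenes that carry the symbol of a gene of the group were counted. The other genes of the group are thus not shown to be free of them.

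Most of the genes were at their extremes in tumors of the Sora-treated group. Sora-treated tumor 3 had the lowest CPM of the 6 tumors for 6 of the 10 genes (Hspa8, Hsp90aa1, Hsp90ab1, Hsph1, Hspe1, and Hspd1), whereas 12.5% of all genes tested were lowest there. Sora-treated tumor 4 had the highest CPM for 7 of the 10 (Hspa1b, Hspa8, Hsp90ab1, Hsph1, Dnajb1, Hspe1, and Hspd1), whereas 18.6% of all genes were highest there. The median deviation of the group from its own mean was -0.15 in tumor 3 and 0.15 in tumor 4 on the log2 scale, while over all genes it was 0.0020 and -0.00013. Tumor 4 is the tumor whose counts were recovered. By deposited FPKM, which are scaled to the total count, Hspa1b was instead highest in Sora-treated tumor 2, Hspe1 in control tumor 1, and Hsph1 was lowest in control tumor 3.

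Within the group the most similar profiles were those of Hspa8 and Hsp90ab1 (distance 0.034), Hsph1 and Hspd1 (0.064), Hsp90aa1 and Hspe1 (0.094), Hsp90aa1 and Hsph1 (0.098), and Hspe1 and Hspd1 (0.0999). Hspb1 stood farthest from the others, up to 0.37 from Dnajb1. Hspa1a and Hspa1b, between which the split of reads is uncertain, lay 0.13 apart.

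**Figure D4:**
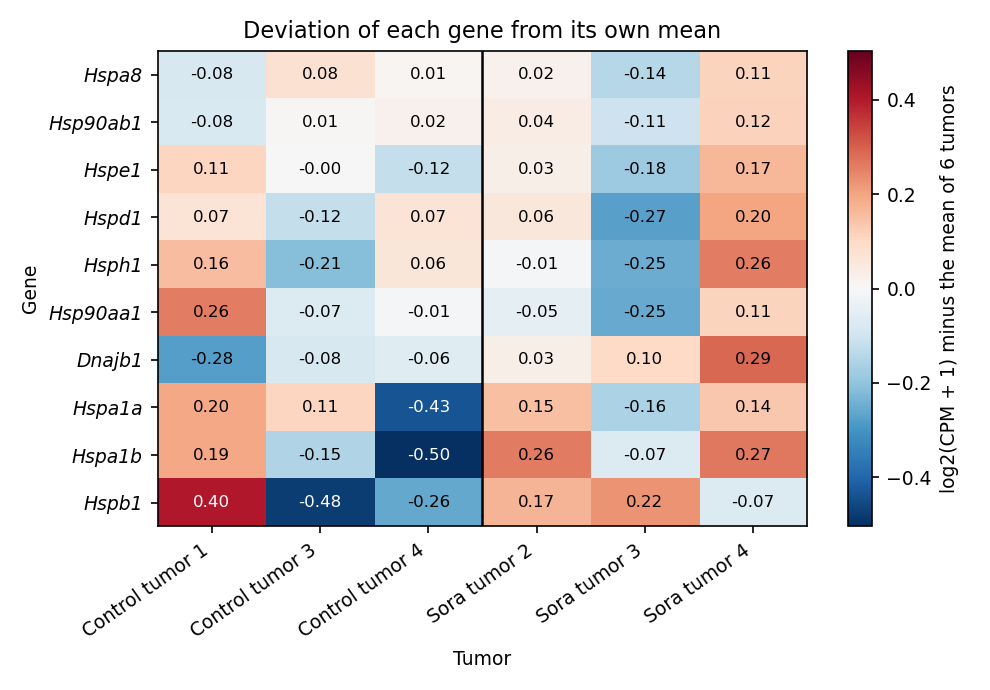
Log2(CPM + 1) of each gene in each tumor, minus the mean of the gene over 6 tumors; red is above and blue below the mean. Hspa8, Hsp90ab1, Hspe1, Hspd1, Hsph1, and Hsp90aa1 are all below their mean in Sora-treated tumor 3 and above it in Sora-treated tumor 4, and Dnajb1 alone is below it in every control tumor.

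The genes that work with these chaperones were read from the same fit, in 9 lists by role with 105 genes, of which 101 were tested. Of these 1 was up-regulated and 0 were down-regulated in edgeR's test, or 0.99% against 3.29% of all genes, with a median log2 fold change of 0.018. At an unadjusted p under 0.05 there were 6 of 101, against 17.2% of all genes, and without Sora-treated tumor 3 there were 16, against 21.3% of all genes in that fit. The gene up-regulated was Lonp1, the ATP-dependent protease that clears damaged proteins from the mitochondrial matrix. It rose from 112, 129, and 127 CPM to 172, 150, and 177 CPM (log2 fold change 0.44, standard error 0.088, adjusted p = 0.026, edgeR), and all Sora-treated tumors were above the control tumors. The call was lost without control tumor 1 (adjusted p = 0.083), control tumor 4 (0.068), Sora-treated tumor 2 (0.094), or Sora-treated tumor 4 (0.13), in edgeR's test, while the log2 fold changes were 0.38, 0.47, 0.42, and 0.40.

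Among the heat shock factors and the proteins that bind them (Hsbp1 and Hsf2bp), 0 of 5 tested genes passed. Hsf1, the main driver of the response, stood at 32.2, 30.6, and 36.8 CPM in control and 39.4, 33.3, and 39.5 CPM in Sora-treated tumors (log2 fold change 0.17, adjusted p = 0.43, edgeR). The log2 fold change of Hsf2 was 0.066 (adjusted p = 0.83, edgeR). Hsf4 stood at 2.28 ± 0.668 and 3.22 ± 0.257 CPM (SD, n = 3), and its log2 fold change of 0.50 had an adjusted p of 0.38 in edgeR. That of Hsf2bp, whose product binds HSF2, was -0.14, and it was -0.022 without control tumor 3.

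Of the other HSP70 and HSP110 genes of the cytosol 0 of 7 passed (median log2 fold change 0.021), with Hspa4l at 0.13, Hspa12a at 0.23, and Hspa2 at -0.049. Of the J-domain proteins 0 of 13 passed (median 0.037), with the widest differences in Dnajb2 (log2 fold change 0.27, adjusted p = 0.13, edgeR) and in Dnajc9, a histone chaperone (-0.26, 0.12). Of the HSP70 cochaperones, BAG proteins and ubiquitin ligase among them, 0 of 9 passed (median 0.046), with Bag2 at 0.28 and Bag1 at -0.14. Of the HSP90 cochaperones 0 of 14 passed (median -0.0051), with Unc45a, a myosin chaperone, at 0.17 and Chordc1 at -0.13.

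Of the other small heat shock proteins 0 of 5 tested genes passed (median log2 fold change -0.028), and Hspb3, Hspb9, and Cryaa were below the filter. The summed CPM of the small heat shock proteins was 135 to 141 in control and 114 to 132 in Sora-treated tumors, and that of the heat shock factor list was 136 to 141 and 144 to 155, the only chaperone lists whose sums did not overlap. In the latter Hsbp1, named after its values were seen, made up most of the sum, at 81.5 ± 1.56 CPM in control and 87.0 ± 1.75 CPM in Sora-treated tumors (SD, n = 3). Hspb8, the partner of BAG3 in selective autophagy, stood at 95.8 ± 2.17 CPM in control and 85.01 ± 7.60 CPM in Sora-treated tumors (SD, n = 3), and edgeR gave a log2 fold change of -0.17 with an adjusted p of 0.31. Hspb7, a muscle protein, had a log2 fold change of 0.59 (adjusted p = 0.20, edgeR) at 2.45 and 3.70 CPM. The 14 skeletal muscle markers, all detected, summed to 247 to 337 CPM in control and 298 to 391 CPM in Sora-treated tumors, and their part in the level of Hspb7 was not tested.

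TRiC, the ring chaperonin that folds actin and tubulin, is fed by prefoldin. Of their 14 genes 0 passed, 12 had a log2 fold change above 0, and the median was 0.11, with Pfdn4 at 0.21, Cct7 at 0.17, and Cct8 at -0.045. Their summed CPM was 3281, 3546, and 3422 in control and 3683, 3269, and 3922 in Sora-treated tumors. Here too Sora-treated tumor 3 was the lowest and tumor 4 the highest.

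In the mitochondria, Lonp1 aside, 0 of the other 15 chaperones and proteases passed. Hspa9, the HSP70 of the matrix, had a log2 fold change of 0.046, Trap1, its HSP90, -0.032, and Hscb, which serves iron-sulfur proteins, -0.26. The ER chaperones answer to the unfolded protein response instead of HSF1, and 0 of 18 passed (median log2 fold change -0.030). Hspa5 and Hsp90b1, the HSP70 and HSP90 of the ER, had log2 fold changes of -0.013 and -0.052, Hyou1 0.15, and Dnajc3 -0.17.

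The immediate-early genes, which respond within minutes to growth signals, stress, and tissue handling, were read from the same fit. Of 16 genes 5 were up-regulated and none was down-regulated, against 3.29% of all genes called in either direction (Dusp1, Fosb, Junb, Egr1, and Ier3, log2 fold changes from 0.42 to 0.74), and the median was 0.20. Their summed CPM was 993 to 1196 in control and 1305 to 1536 in Sora-treated tumors, without overlap. Without Sora-treated tumor 4, where 5 of all genes were called, none of these 5 was under 0.05 (adjusted p from 0.085 to 0.20, edgeR), with log2 fold changes from 0.37 to 0.68. With each of the 6 tumors left out in turn, Dusp1 was called 5 times, Junb, Egr1, and Ier3 2 times each, and Fosb 1 time. Whether this list differs from the chaperone lists was not tested. Among 20 cell cycle genes 0 passed (median -0.033). The summed level of 18 leukocyte markers was 3822 to 4177 CPM in control and 3154 to 3755 CPM in Sora-treated tumors, and that of 10 fibroblast markers was 8409 to 8617 and 5850 to 7329 CPM. Red blood cell genes summed to 47.0 to 129 CPM in control and 32.9 to 44.1 CPM in Sora-treated tumors. The sums of adipocyte and endothelial markers overlapped between the groups. The summed CPM of the 10 heat shock proteins was 5510 to 5613 in control and 5005 to 6103 in Sora-treated tumors, and the part of other cell types in these levels was not tested. Of the hepatoma markers 14 of 18 were tested, with 8 log2 fold changes above 0 and 6 below. Apoa1 (1.03) and Hnf4a (0.80) were up-regulated, and Alb (-0.55) and Ttr (-2.15) were down-regulated (adjusted p from 0.0055 to 0.047, edgeR), against 3.29% of all genes called. Without Sora-treated tumor 4 the call of Ttr alone was kept, and the log2 fold changes of Apoa1, Hnf4a, and Alb were 0.65, 0.70, and -0.53. With each of the 6 tumors left out in turn, Ttr was called 6 times, Hnf4a 4 times, Alb 2 times, and Apoa1 1 time.

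**Figure D5:**
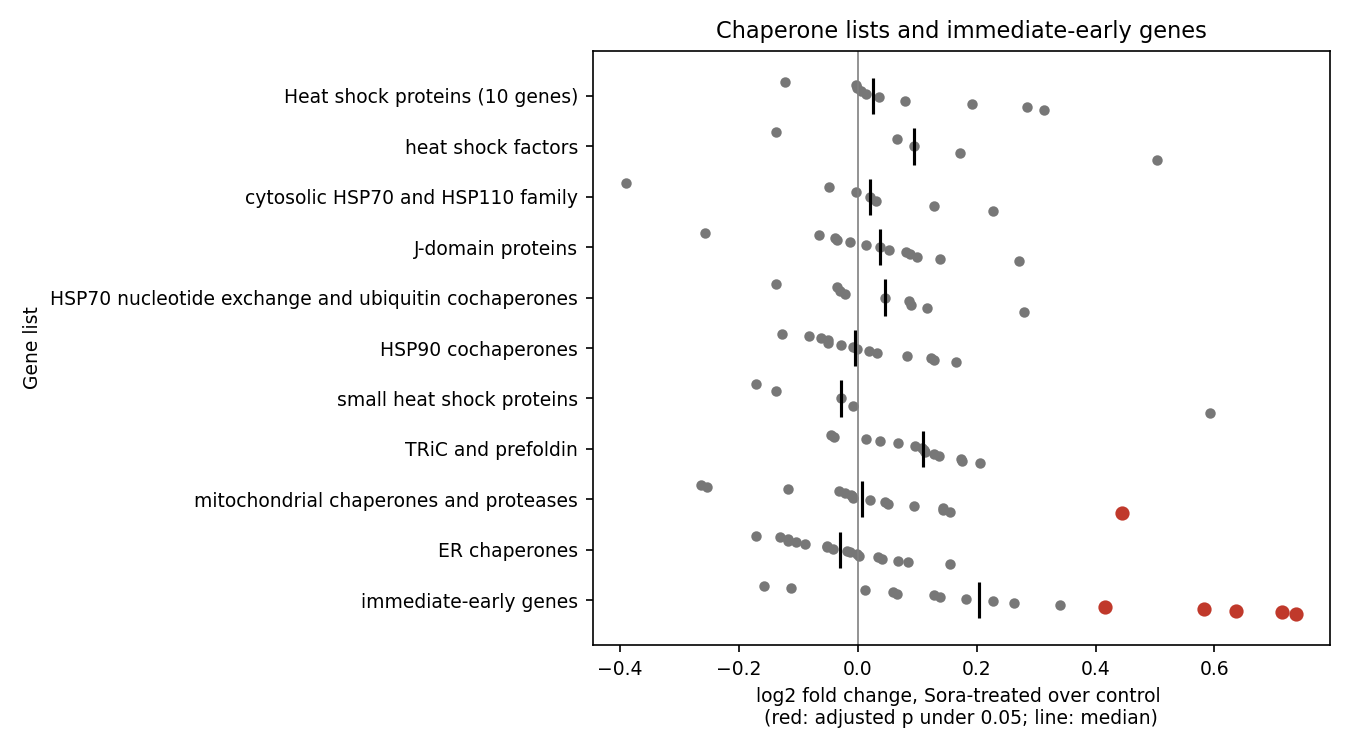
Log2 fold change of each gene tested (points) in the 10 heat shock proteins, 9 chaperone lists (the factors with the proteins that bind them), and the immediate-early genes, with the median of each list as a line. Lonp1 is the only red point, with an adjusted p under 0.05, outside the immediate-early genes, of which 5 are red.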

How the data were processed

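RNA-seq of 3 control and 3 Sora-treated tumors was analyzed. The authors deposited counts, whole reads per gene symbol without normalization, for 5 tumors, and FPKM for 6. Per the paper's methods reads were aligned to GRCm38 with Bowtie2, whereas the submitters' processing notes list fastp, HISAT2, HTSeq, DESeq2, R 3.2.0, and GRCm39. Strand use is not given in the sources used here. In the shared 5 tumors each deposited FPKM equals count over length and total. The counts of Sora-treated tumor 4 were recovered from this relation (100% within 0.001 of a whole number; 342 genes without a length, with 512 reads, stayed at 0), and in each known tumor treated as unknown all genes with a length came back exactly, while 460 to 556 genes without one (669 to 1023 reads) were not placed.

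The 16513 genes that reached 10 counts in 3 or more tumors were tested with edgeR 4.0.16 (glmQLFit, glmQLFTest, TMM scaling) in R 4.3.3. Standard errors are the log2 fold change over the square root of F, and 95% intervals use the degrees of freedom of the same test. Alternatives were DESeq2 1.42.0, limma 3.58.1 (voom, and log2 FPKM with a pseudocount of 1 or 0.1 where 3 or more tumors reached 1 FPKM), other scalings and filters, a replicate block, leaving out each tumor, and summing Hspa1a and Hspa1b. Coding sequences of GENCODE transcripts, used in place of the planned protein comparison, were aligned with Biopython 1.88. The fits were tested on simulated data. Coordinates and promoters are RefSeq's, of GRCm38.p6, and the deposited tables hold none.

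The group and the lists were chosen with earlier results of these data known. Named were all 10 genes and, in each chaperone list, genes with an adjusted p under 0.05, the smallest p, or the largest rise or fall at a mean of at least 1 CPM, plus Hsf1, Hsf2, Hspa9, Trap1, Hspa5, and Hsp90b1. Lists of other cell types were read as sums.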

Additional observations from a re-analysis of the deposited data

How the results depend on the processing

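Under 18 alternatives 0 of the 10 heat shock proteins was called, leaving out each tumor included, but some of these called few genes of any kind: 0 of 26167 in limma on log2(FPKM + 1) without a filter, 5 of 16319 without Sora-treated tumor 4, and 38 of 12305 with log2(FPKM + 0.1). For the 9 chaperone lists the count of 1 (Lonp1) became 0 with the replicate block and in limma on log2(FPKM + 1), log2(FPKM + 0.1), and log2(FPKM + 1) of all genes. In these limma fits the log2 fold changes of Lonp1 were 0.42, 0.43, and 0.42, and the first gave an adjusted p of 0.053. The count ranged from 0 to 3 with each tumor left out. Without Sora-treated tumor 3 it was 3 of 101 (Lonp1, Bag2, and Dnajb2), against 7.03% of all genes in that fit. Log2 fold changes near 0 turned sign. With 1 tumor left out, Hspa8 ranged from -0.061 to 0.062, Hsp90ab1 from -0.014 to 0.093, Hsph1 from -0.13 to 0.12, Hspe1 from -0.069 to 0.10, Hspd1 from -0.11 to 0.12, and Hspa1a from -0.11 to 0.22. Hsph1 was -0.0016 in limma voom, -0.013 with total counts, -0.0019 with upper quartile scaling, -0.00081 without a filter, -0.012 with log2(FPKM + 1) with and without a filter, and -0.013 with log2(FPKM + 0.1). Hspe1 was -0.0010 in each of the 3 FPKM fits. With 10 counts in every tumor Hspa8 was 0.00034 and Hspd1 0.0014. With the replicate block Hsp90ab1 was -0.0072, Hspa2 0.071, and Hspa9 -0.023. With 1 tumor left out, Hspa2 ranged from -0.16 to 0.081, Hsf2 from -0.047 to 0.13, Hspa9 from -0.015 to 0.11, Trap1 from -0.099 to 0.030, and Hspa5 from -0.066 to 0.023. The cause was not tested. Same-numbered tumors did not deviate together (r = -0.033 and -0.074, beside -0.16 to 0.26 for tumors of unlike number). With so few same-numbered tumors, these values cannot show whether the numbers pair them. The block lowered the calls over all genes from 543 to 125, and those of the heat shock proteins stayed at 0. Control tumor 1 and Sora-treated tumor 2 share their number with no other tumor, so the block compares tumors 3 and 4 alone. The block also ended the calls of Lonp1 (adjusted p = 0.30, edgeR) and of Fosb, Junb, Egr1, and Ier3 (0.16 to 0.30, edgeR), whose log2 fold changes were 0.35, 0.70, 0.58, 0.59, and 0.41. Dusp1 kept its call (log2 fold change 0.85, adjusted p = 0.022, edgeR). At an unadjusted p under 0.05 the block gave 3 heat shock proteins and 2 chaperone list genes, against 9.37% of all genes in that fit. In limma on FPKM, Fosb, Egr1, and Ier3 lost their calls with log2(FPKM + 1) (adjusted p from 0.060 to 0.087), where 198 genes were called in all. Their log2 fold changes in that fit were 0.50, 0.56, and 0.40. The other FPKM fits called too few genes to bear on single calls. Hspa1a, Hspb1, and Hspa1b, at 191 to 479 counts per tumor, were the least deeply counted of the 10 genes.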
